A study of Mus musculus with 8 samples.

Results

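The tricarboxylic acid (TCA) cycle burns acetyl groups to CO2 in the mitochondrial matrix, and the pyruvate dehydrogenase complex feeds it by turning pyruvate into acetyl-CoA. The electrons that its dehydrogenases collect drive oxidative phosphorylation, and muscle fibres rich in mitochondria carry much of this machinery. AMPK is an energy-sensing kinase whose catalytic α subunit exists as α1 (gene *Prkaa1*) or α2 (gene *Prkaa2*), and in muscle it is known for raising mitochondrial content and fuel oxidation. The genes described here are 9 enzymes of the route, taken by symbol from the deposited expression table: *Pdha1*, *Cs*, *Idh2*, *Idh3a*, *Idh3g*, *Ogdh*, *Suclg1*, *Fh1* and *Mdh2*. They hold 62 of the 56483 polyadenylation adjacent sites (APSs) of the table and are 9 of its 15378 genes.

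The measurements are WTTS-seq counts of transcript 3′ ends in the gastrocnemius, the calf muscle. There are 4 groups of 2 male mice each: AMPKα1 KO, its WT control, AMPKα2 KO and its WT control, with 1 library per mouse and 8 libraries in all. The sample labels give every mouse as an adult on a C57BL/6 background, whereas the methods of the study name 129S2/SvPas for the AMPKα1 KO and C57BL/6 for the AMPKα2 KO. The AMPKα1 KO mice were about 6 weeks and the AMPKα2 KO mice about 8 weeks old, and the age of the WT mice is not given in the sources used here. In both KO models a coding part of the catalytic domain is deleted, and neither the labels nor the methods name a tissue-specific Cre. Age, strain and library preparation cannot be told apart from the targeted gene between the models, so KO was compared with WT within each model.

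Between 2311242 and 3549156 reads were counted per library. Skeletal muscle markers were abundant throughout, with 6 of 6 (*Acta1*, *Ckm*, *Mb*, *Myh4*, *Tnnt3*, *Ttn*) above 0 in each model. The reads of *Prkaa1* (0 and 82 in AMPKα1 KO, 15 and 0 in AMPKα1 WT) and of *Prkaa2* (40 and 71 in AMPKα2 KO, 87 and 62 in AMPKα2 WT) overlapped between KO and WT. The *Prkaa2* APSs lie in an intron after codon 32, at codon 59 (chr4:105075473, with 21 and 31 reads in AMPKα2 KO and 27 and 24 in WT) and in or beyond the 3′ UTR, outside the codons that the methods give as deleted, so *Prkaa2* reads do not check the AMPKα2 labels. The 82 *Prkaa1* reads of the library labelled AMPKα1 KO 2 came from an intronic APS at chr15:5163362, after codon 90, which is inside the codon range given as deleted in AMPKα1, and the library labelled AMPKα1 KO 1 had none. Taken at face value, the 82 reads go against the label or the stated extent of the deletion, whose genomic ends are not given in the sources used here. They come from a single APS, which had no read in AMPKα1 WT 2 either, and how they arose was not tested. AMPKα1 KO 2 below means the library so labelled. The median of the 9 genes is also given without it. So are the log2 fold changes, but not the p-values, of the 2 genes with the lowest p in AMPKα1. In the AMPKα1 model, APSs often dropped out between mice: of all APSs with at least 16 reads in either mouse of a group, 52.3% had no read in the group's other mouse for KO and 27.8% for WT, against 0.799% and 0.661% in the AMPKα2 model. The biological coefficient of variation per gene was 104% in AMPKα1 and 26.2% in AMPKα2. Nothing in the sources used here places the 2 mice of a group in separate litters or batches, so p-values measure the spread between these samples only.

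Where the 3′ ends of the 9 genes lie was read first, because the gene totals rest on it. Each gene had 3 to 20 APSs, yet with the 8 libraries pooled a single site took most reads of each. One APS carried 99.1% of the *Idh2* reads over the 8 libraries, 99.0% of *Mdh2*, 98.4% of *Fh1*, 98.3% of *Idh3g*, 97.5% of *Suclg1* and 87.3% of *Ogdh*. *Pdha1*, *Cs* and *Idh3a* had a second APS of weight. AMPKα1 supplied most of these reads, and in the 4 AMPKα2 libraries the same site took less: 34.1% to 49.8% for *Pdha1*, 26.9% to 59.0% for *Cs* and 59.6% to 78.9% for *Ogdh*. The 30 bases before these sites are shown on the strand of the gene, in GRCm38 with GENCODE M21 annotation, because they tell a site behind a polyadenylation signal from one without. Capitals mark AATAAA or ATTAAA, the common hexamer and its main variant, searched on the transcript strand only.

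For *Pdha1*, the catalytic α subunit of pyruvate dehydrogenase (chrX:160122209-160138413, minus strand), the windows are chrX:160122215-160122244 at the end of the 3′ UTR, which held 84.1% of its reads, and chrX:160123525-160123554 further upstream in the 3′ UTR, which held 8.79%.
Pdha1 end site: gaaacgaATTAAActtgtttgattcagcta
Pdha1 upstream site: accatccatcatatcccgggttaggtacta

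For *Cs*, citrate synthase (chr10:128337734-128362479, plus strand), the windows are chr10:128361191-128361220 in the 3′ UTR, with 16.8% of the reads, and chr10:128362450-128362479, the last bases of the annotated gene, 3 bases before an APS with 70.6%.
Cs upstream site: aaagtgtaattttgttttgtttcaggggcc
Cs end site: taaaaatAATAAAtgtttttattaacaatg

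For *Idh3a*, the catalytic subunit of the NAD-dependent isocitrate dehydrogenase (chr9:54586334-54604661, plus strand), the windows are chr9:54603914-54603943 in the 3′ UTR, with 64.2% of the reads, and chr9:54604632-54604661, 4 bases before an APS with 28.99%.
Idh3a upstream site: ctattAATAAAaatgtaagctccaagaaat
Idh3a end site: ggttcacagtAATAAAgaacttaagaactg

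For *Idh3g*, a regulatory subunit of the same enzyme (chrX:73778963-73786897, minus strand), *Suclg1*, the α subunit of succinyl-CoA synthetase (chr6:73248382-73276911, plus strand), and *Fh1*, fumarase (chr1:175600374-175625635, minus strand), the windows of the single main APS are chrX:73778964-73778993, chr6:73276880-73276909 and chr1:175601383-175601412, all in the 3′ UTR.
Idh3g: gacccagAATAAAgccacttctgttccaga
Suclg1: agatAATAAAtctatcatttgatttgaact
Fh1: ttatATTAAAATAAActtaagaaatttaca

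The upstream *Pdha1* and *Cs* windows held neither hexamer, and both *Idh3a* windows held AATAAA. In *Fh1* the 2 hexamers share a base. The main sites of *Idh2*, the NADP-dependent mitochondrial isocitrate dehydrogenase (chr7:80094846-80115392), *Ogdh*, the E1 subunit of 2-oxoglutarate dehydrogenase (chr11:6291633-6356642), and *Mdh2*, mitochondrial malate dehydrogenase (chr5:135778480-135790398), also had neither within 30 bases. Of all APSs in 3′ UTRs of protein coding genes, 56.7% had one of the 2 hexamers in such a window. No match says only that these letters are not in the window.

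Zeros at the smaller sites of the 9 genes fell unevenly between the models. The study used 16 reads per APS as a cutoff. An APS without an AMPKα1 read is therefore in the table only through its AMPKα2 reads. The part of the dropout between AMPKα1 mice in these zeros was not tested. Of the 62 APSs, 29 (46.8%) had 0 reads in all 4 AMPKα1 libraries, and none had 0 in all 4 AMPKα2 libraries. Over the whole table, 12.6% of APSs had 0 reads in AMPKα1 and 11.4% in AMPKα2. These APSs lay mostly inside the coding sequence: 21 of the 22 coding-exon APSs of the 9 genes were without an AMPKα1 read, against 49.98% of coding-exon APSs of all protein coding genes. The genes with the most APSs in coding exons were *Ogdh*, with 11, and *Idh3a*, with 4. Of the 29 APSs, 27 had a 30-base window inside an exon and none of those windows held either hexamer, and among coding-exon APSs of all genes 2.80% did. Their read clusters had a median width of 126 bases against 60 for the other APSs of the 9 genes. Over the whole table the medians were 62 for APSs without an AMPKα1 read and 27 for the others. Width did not set the 29 apart from main sites. Some of those were wider (464 bases for *Mdh2*, 389 for *Ogdh*) and some narrower (88 for *Idh3g*, 60 for *Fh1*, 29 for *Idh2*). The upstream *Cs* and *Pdha1* clusters were wider still, at 563 and 484 bases. Their 30-base windows above cover only a small part of each cluster.

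In the AMPKα2 libraries these 29 APSs took 17.1% of the reads of the 9 genes in KO 1, 9.47% in KO 2, 8.64% in WT 1 and 9.95% in WT 2. KO 1 stood above the other 3 libraries. It also had the highest share of reads from the 18S rRNA repeat gene *Rn18s-rs5*, at 20.6% of gene reads against 13.7%, 16.1% and 17.8%, and the part of this in the result was not tested. In AMPKα1 the same repeat gene took at most 0.132% of gene reads. The 9 genes together made up 0.330% to 0.415% of gene reads in AMPKα1 and 0.0941% to 0.129% in AMPKα2, and this difference cannot be assigned to genotype, age, strain or library.

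**Figure D1:**
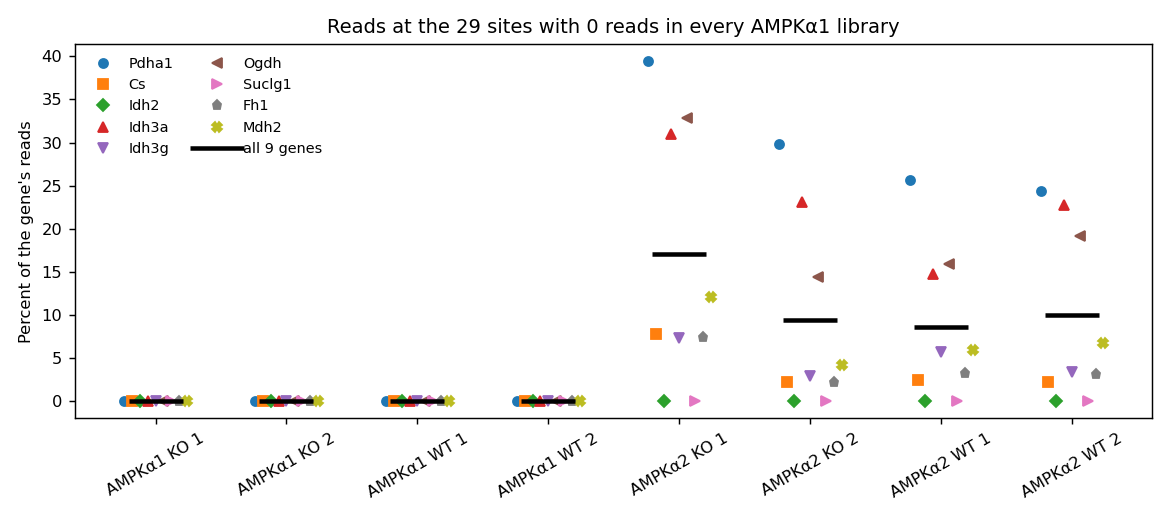
Percent of each gene's reads (y axis) at the 29 APSs that had 0 reads in every AMPKα1 library, for the 8 libraries (x axis); symbols are the 9 genes and black bars all 9 together. The bars are at 0 in AMPKα1 by the choice of the sites, at 17.1% in AMPKα2 KO 1 and at 8.64% to 9.95% in the other 3 AMPKα2 libraries; *Pdha1*, *Idh3a* and *Ogdh* lie highest.

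Levels are given as CPM (counts scaled to the size of a library), adjusted by TMM factors (which align the bulk of genes) within each model. Each read stands for a transcript end, so no length scaling enters and genes can be set side by side, apart from genes such as *Ogdh* with many sites inside the transcript. In AMPKα1 the mean gene-level CPM over the 4 libraries ran from 633 for *Fh1*, 568 for *Suclg1* and 542 for *Idh2* through 446 for *Ogdh*, 436 for *Idh3a*, 406 for *Mdh2* and 344 for *Cs* to 210 for *Pdha1* and 151 for *Idh3g*. In AMPKα2 *Ogdh* was first with 193, ahead of *Idh2* with 156 and *Idh3a* with 150. The other 6 lay close together there, between 86.1 for *Pdha1* and 99.97 for *Mdh2*, and the steps between neighbours in that order were smaller than their spread over libraries.

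The first comparison asks whether the enzymes changed with loss of AMPKα1. By edgeR's quasi-likelihood test at an adjusted p under 0.1, 0 of the 9 genes were called, and 0% of all 13941 genes tested were. At an unadjusted p under 0.05, 2 of 9 were lower in KO and 0 higher, against 2.84% and 1.37% of all genes, and DESeq2 called 0 of the 9 and 1.23% of the genes it gave an adjusted p, which was 124. The median log2 fold change (KO minus WT) of the 9 genes was -0.57 and that of all genes -0.03 (-0.19 for the 926 genes at least as abundant as the lowest of the 9), and 6 of 9 were below 0 against 51.1% of all genes. Scaling by library totals alone moved the median of all genes to 0.22 and that of the 9 genes to -0.28, with 6 of 9 still below 0. Without AMPKα1 KO 2 the median of the 9 genes was -0.36 with 6 of 9 below 0, that of all genes -0.24, and 0 of 9 were called.

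The lowest unadjusted p among the 9 genes was that of *Suclg1*, which makes succinate with the capture of a nucleoside triphosphate. Its CPM was 317 and 385 in AMPKα1 KO and 886 and 684 in WT. Both KO libraries lay below both WT libraries, with a log2 fold change of -1.16 ± 0.37 (SE, 95% interval -2.05 to -0.27, n = 2 per group, unadjusted p = 0.0186, adjusted p = 0.763 by edgeR's quasi-likelihood test). *Idh3g* had 102 and 51.9 CPM in KO and 281 and 168 in WT. The groups again did not overlap, and its log2 fold change was -1.55 ± 0.53 (SE, 95% interval -2.84 to -0.25, unadjusted p = 0.0262, adjusted p = 0.763), the largest of the 9 in AMPKα1. Neither passed the threshold, and without AMPKα1 KO 2 the log2 fold changes were -1.31 for *Suclg1* and -1.15 for *Idh3g*. *Idh3a*, the partner subunit, was also lower in both KO libraries, with 334 and 367 against 623 and 418 CPM and a log2 fold change of -0.57 (95% interval -1.51 to 0.37).

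*Idh2* and *Mdh2* lay the other way. *Idh2* had 871 and 476 CPM in KO and 410.0 and 410.3 in WT, and *Mdh2*, which regenerates oxaloacetate, had 565 and 418 against 337 and 304. Both genes were higher in both KO libraries, with log2 fold changes of 0.72 (95% interval -0.31 to 1.74) and 0.62 (95% interval -0.29 to 1.53). In all, 3 of 9 genes had both KO libraries below both WT libraries and 2 of 9 above, against 18.9% and 13.6% of all genes tested.

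The groups of the remaining 4 genes overlapped. *Pdha1* had 219 and 112 CPM in KO and 218 and 289 in WT, and *Cs*, which opens the cycle, had 302 and 303 against 296 and 476. *Ogdh* had 406 and 302 against 294 and 784, so its 2 WT libraries were further apart than the group means. *Fh1* had 789 and 513 against 743 and 486, almost the same pair of values in both groups. Their log2 fold changes were -0.62, -0.35, -0.61 and 0.08, with intervals that reached from -1.92 at the lowest to 1.10 at the highest and so covered changes of 2-fold and more. Without AMPKα1 WT 2, *Cs* and *Ogdh* changed sign, to 0.07 and 0.30, and *Fh1* did so without KO 1 (-0.26) or without WT 2 (-0.15).

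**Figure D2:**
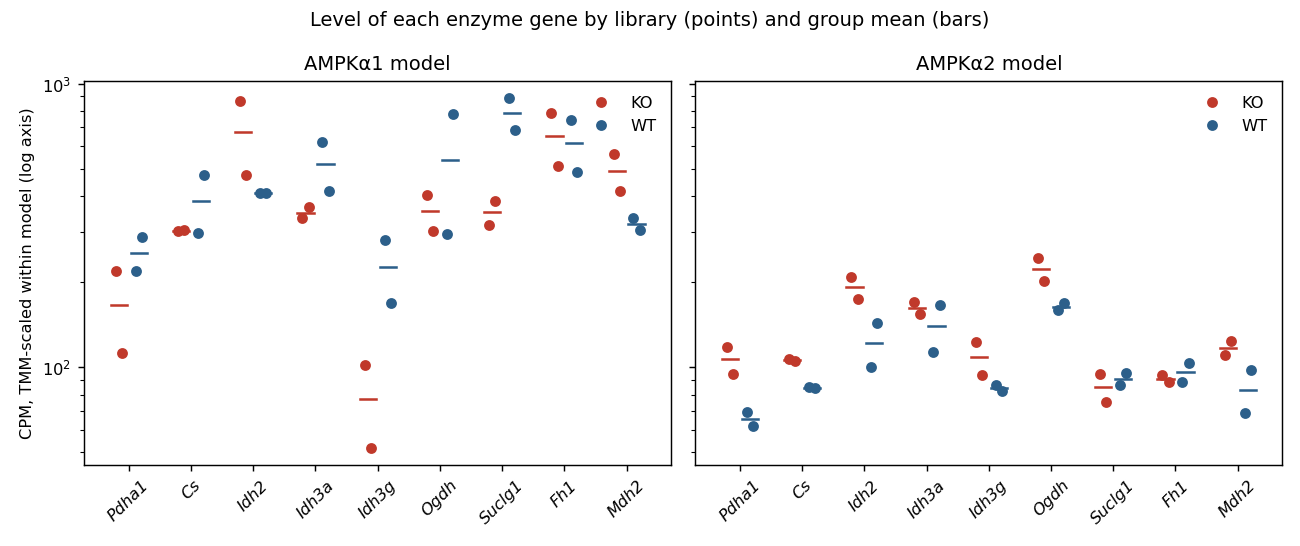
CPM of each of the 9 genes (y axis, log scale, TMM-scaled within the model) in the AMPKα1 (left) and AMPKα2 (right) libraries; points are single mice, red KO and blue WT, and short bars are group means. In AMPKα1 *Idh3a*, *Idh3g* and *Suclg1* have both KO points below both WT points, and in AMPKα2 *Pdha1*, *Cs*, *Idh2*, *Idh3g*, *Ogdh* and *Mdh2* have both KO points above.

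Summed muscle markers lay lower in AMPKα1 KO. All 6 skeletal muscle markers had log2 fold changes below 0, with a median of -0.75, and their summed CPM was 57758.5 and 45318 in KO and 97222 and 66739 in WT. For 8 fast fibre markers, among them *Myh4* and *Atp2a1*, the sums were 71273.5 and 67352.5 in KO and 143308 and 97916 in WT, and 4 of 8 were lower at an unadjusted p under 0.05, against 2.84% of all genes. The 7 slow fibre markers summed to 5291 and 2306 in KO against 2066 and 1668 in WT. In 1 of 7 (*Myh7*, 2395 and 1416 against 666 and 659) both KO libraries exceeded both WT libraries, against 13.6% of all genes. Another 2 of 7 had log2 fold changes below 0. The 4 Schwann cell markers summed to 584 and 475 in KO against 669 and 1308 in WT. No list had a gene called by edgeR's test at an adjusted p under 0.1, and none of these markers was at 0 in the model. In bulk muscle, fewer cells of a type and less RNA per cell cannot be told apart, and the part of these markers in the enzyme values was not tested.

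In the AMPKα2 model, most of the 9 genes lay higher in KO. By edgeR's quasi-likelihood test at an adjusted p under 0.1, 0 of 9 were called, against 0.673% of all genes, which was 71 of 10552 (39 higher and 32 lower; 185 with library totals alone, 82 higher and 103 lower). DESeq2 called 0 of the 9 and 1.18% of the genes it gave an adjusted p, which was 82. At an unadjusted p under 0.05, 2 of 9 were higher in KO and 0 lower, against 4.83% and 3.68% of all genes. The median log2 fold change was 0.35 for the 9 genes and -0.00455 for all genes (0.12 for the 697 genes at least as abundant as the lowest of the 9), and 2 of 9 were below 0 against 50.4%. In 6 of 9 genes both KO libraries exceeded both WT libraries, and in 0 of 9 both lay below, against 18.6% and 20.7% of all genes. Library totals alone moved the median of all genes to -0.19 and that of the 9 genes to 0.14.

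*Pdha1*, the entry enzyme, had 118 and 94.8 CPM in AMPKα2 KO and 69.6 and 61.8 in WT. The KO libraries were clear of the WT libraries, and the log2 fold change was 0.69 ± 0.25 (SE, 95% interval 0.15 to 1.23, n = 2 per group, unadjusted p = 0.0176, adjusted p = 0.428 by edgeR's quasi-likelihood test). *Idh2*, which makes NADPH in the matrix, had 209 and 173 against 100.3 and 143. Its log2 fold change was 0.65 ± 0.26 (SE, 95% interval 0.07 to 1.23, unadjusted p = 0.0305, adjusted p = 0.532). With library totals alone the unadjusted p of these genes was 0.286 and 0.268 at log2 fold changes of 0.47 and 0.46. Neither gene passed the threshold under any setting tried.

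*Ogdh* had 243 and 201 CPM in KO and 159 and 168 in WT, and *Mdh2* 110.3 and 123 against 68.7 and 97.7. Their log2 fold changes were 0.44 (95% interval -0.09 to 0.97) and 0.49 (95% interval -0.08 to 1.06). *Idh3g* had 122 and 94.0 against 86.2 and 82.6, a log2 fold change of 0.35 (95% interval -0.19 to 0.90), so a gene that lay lower in AMPKα1 KO lay slightly higher here. *Cs* was the tightest of the 9 genes, with 106 and 105 CPM in KO against 84.8 and 84.0 in WT and a log2 fold change of 0.33 (95% interval -0.18 to 0.84).

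*Idh3a*, *Suclg1* and *Fh1* overlapped between the groups. *Idh3a* had 169 and 153 CPM in KO against 113 and 166 in WT, and its log2 fold change of 0.21 became -0.05 without WT 1. *Suclg1* had 94.4 and 75.1 against 86.2 and 95.4, and *Fh1* 93.7 and 88.5 against 88.3 and 103.4. For *Suclg1* the log2 fold change of -0.10 had a 95% interval of -0.64 to 0.44, and for *Fh1* that of -0.07 had one of -0.60 to 0.45.

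**Figure D3:**
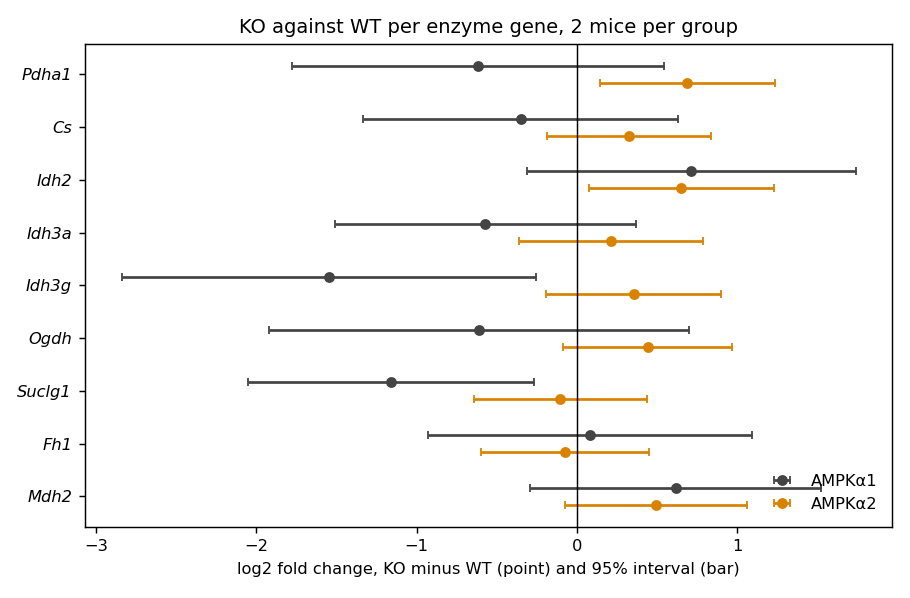
Log2 fold change of KO over WT (x axis, points) with its 95% interval from edgeR's fit (bars) for the 9 genes (y axis) in AMPKα1 (grey) and AMPKα2 (orange), 2 mice per group. The AMPKα2 intervals are narrower; the intervals of *Idh3g* and *Suclg1* in AMPKα1 and of *Pdha1* and *Idh2* in AMPKα2 leave out 0, and none of the 4 passed after adjustment by edgeR's test.

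Skeletal muscle and slow fibre markers lay higher in AMPKα2 KO as well, and fast fibre markers were less uniform. The 6 skeletal muscle markers summed to 91522 and 64392 CPM in KO and 50542 and 52142 in WT, and 6 of 6 had both KO libraries above both WT libraries, against 18.6% of all genes. The 7 slow fibre markers summed to 2324 and 2343 in KO and 721 and 1515 in WT, and 6 of 7 were higher at an unadjusted p under 0.05, against 4.83% of all genes, with a median log2 fold change of 1.05. The slow myosin gene *Myh7* had 1025 and 973 CPM in KO against 252 and 536 in WT. The 8 fast fibre markers summed to 65214 and 52730 in KO and 49244 and 51673 in WT. Their median log2 fold change was 0.23, with 2 of 8 below 0. In 4 of 8 both KO libraries exceeded both WT libraries, against 18.6% of all genes. The 5 genes of the mitochondrial genome in the table were split. For 3 of 5 the log2 fold change was below 0, and *ND4* (0.15) and *COX3* (0.28) lay above 0. The summed CPM of the 5 was 56.1 and 81.8 for the KO libraries and 88.9 and 124 for the WT libraries. Their median log2 fold change was -0.62, and 2 of 5 (*ND1*, -1.13, and *COX1*, -0.89) were lower at an unadjusted p under 0.05, against 3.68% of all genes. None of these markers was called at an adjusted p under 0.1, none was at 0, and their part in the enzyme values was not tested. Library KO 1 had the lowest TMM factor of the 8, 0.744. Without it the median log2 fold change of the 9 genes was 0.31 with 2 of 9 below 0, and leaving the 18S repeat gene out of the table, a setting added after the data were seen, gave 0.36.

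The next question was whether the KO effects differed between the models, tested as the interaction of genotype and model over the 8 libraries. This fit uses the same estimate of the spread for both models, although the coefficient of variation per gene was 104% in AMPKα1 and 26.2% in AMPKα2. Of the 9 genes, 0 were called at an adjusted p under 0.1 by edgeR's quasi-likelihood test, against 0.065% of all genes, and DESeq2 called 0 as well. At an unadjusted p under 0.05, 3 genes had a more positive effect in AMPKα2, against 4.75% of all genes. *Idh3g* differed by 1.87 on the log2 scale (95% interval 0.52 to 3.22, unadjusted p = 0.0117, adjusted p = 0.524), *Pdha1* by 1.28 (95% interval 0.02 to 2.54, unadjusted p = 0.0468) and *Suclg1* by 1.04 (95% interval 0.05 to 2.02, unadjusted p = 0.0406). Over leave-one-out fits the *Idh3g* difference ran from 1.32 to 2.47. The value of 2.47 came without AMPKα1 KO 1. That fit leaves AMPKα1 KO 2, the library with the intronic *Prkaa1* reads, as the only AMPKα1 KO library. For *Idh2*, *Fh1* and *Mdh2* the differences were -0.09, -0.18 and -0.15, with intervals between -1.31 and 1.10.

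At the level of single sites, 31 of the 62 APSs could be tested in AMPKα1 and 47 in AMPKα2, the others having fewer than 16 reads over the 4 libraries. By edgeR's quasi-likelihood test at an adjusted p under 0.1, 0 were called in either model, against 0.00454% and 0.056% of all APSs tested. At an unadjusted p under 0.05, 3 APSs were lower in AMPKα1 KO, against 2.38% of all, and 2 were higher in AMPKα2 KO, against 5.11%. The 3 APSs were the main sites of *Idh3g* and *Suclg1*, which carry their gene totals, and the upstream *Pdha1* site. The 2 APSs were the upstream *Cs* site and a coding-exon APS of *Ogdh* at chr11:6355378, with 16 and 9 reads in the KO mice against 5 and 3 in the WT mice.

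The upstream *Pdha1* site, whose window is shown above, had 0 and 0 reads in AMPKα1 KO and 43 and 44 in WT, while the end site had 770 and 406 against 357 and 952. Against a floor of 3 reads per library the upstream site was at least 23.8-fold lower in KO. Its adjusted p was 0.543 by edgeR's quasi-likelihood test. By DESeq2, which called 1.37% of the APSs it gave an adjusted p, it was 0.0734. With all 8 libraries fitted together by edgeR it was 0.0061, in a fit that called 0.713% of APSs as lower in KO. That fit uses the same estimate of the spread for both models, while the coefficient of variation per APS was 156% in AMPKα1 and 38.8% in AMPKα2. The share of *Pdha1* reads at this site was 10.7% (95% Wilson interval 8.08% to 14.2%) in WT 1 and 4.42% (3.31% to 5.88%) in WT 2. For 0 of 770 reads in KO 1 the upper limit of the 95% Wilson interval was 0.496%, and for 0 of 406 in KO 2 it was 0.937%. Of the APSs of the 9 genes with at least 16 reads in either mouse of a group, 4 of 19 had no read in the group's other mouse for AMPKα1 KO and 8 of 29 for AMPKα1 WT, and none lacked one in AMPKα2. In AMPKα2 the site was read in every library, at 26.5% and 20.3% of *Pdha1* reads in KO and 29.4% and 31.3% in WT.

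*Cs* and *Idh3a* each have an upstream and an end site, and in AMPKα2 their end sites lay lower in KO. *Pdha1* has both as well, but its end site lay higher there, with 30.8 and 38.8 CPM in KO and 27.3 and 23.8 in WT. The upstream *Cs* site took 61.1% (95% Wilson interval 53.5% to 68.1%) and 51.5% (45.5% to 57.4%) of *Cs* reads in AMPKα2 KO and 35.9% (30.6% to 41.5%) and 32.6% (26.1% to 39.8%) in WT. The end site took 26.9% and 38.1% in KO and 55.2% and 59.0% in WT. The KO and WT shares did not overlap, and the upstream site was the larger in both KO libraries and the end site in both WT libraries. How often shares separate in this way over all APSs was not worked out, here or for *Idh3a* below. With 2 mice against 2, exact permutation cannot go below p = 0.333.

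In CPM, the upstream *Cs* site stood at 49.9 and 44.6 in KO and 26.6 and 23.8 in WT, a log2 fold change of 0.90 (95% interval 0.12 to 1.69, unadjusted p = 0.0287, adjusted p = 0.629 by edgeR's quasi-likelihood test). The end site stood at 22.0 and 33.0 in KO and 40.9 and 43.1 in WT, a log2 fold change of -0.60 (95% interval -1.44 to 0.24). Site usage within *Cs*, tested over its APSs with edgeR, had an unadjusted p of 0.0602 and an adjusted p of 0.676. In AMPKα1 the end site held 70.6% to 79.0% of *Cs* reads in all 4 libraries, and the upstream site 19.5% and 3.92% in KO and 12.2% and 9.99% in WT, which overlap.

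The end site of *Idh3a* took 5.28% (95% Wilson interval 3.17% to 8.67%) and 10.5% (7.84% to 14.0%) of *Idh3a* reads in AMPKα2 KO and 16.1% (12.7% to 20.1%) and 17.7% (14.0% to 22.0%) in WT. The site itself was lower in both KO libraries, with 6.86 and 13.2 CPM against 15.8 and 25.5 and a log2 fold change of -1.01 (95% interval -2.11 to 0.09, unadjusted p = 0.0677, adjusted p = 0.670 by edgeR's quasi-likelihood test). In AMPKα1 it took 36.2% and 27.3% in KO and 44.4% and 28.0% in WT, and the KO and WT values overlap. Intervals and limits cover counting error only, because amplified reads that carry no molecular identifier are not separate molecules.

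**Figure D4:**
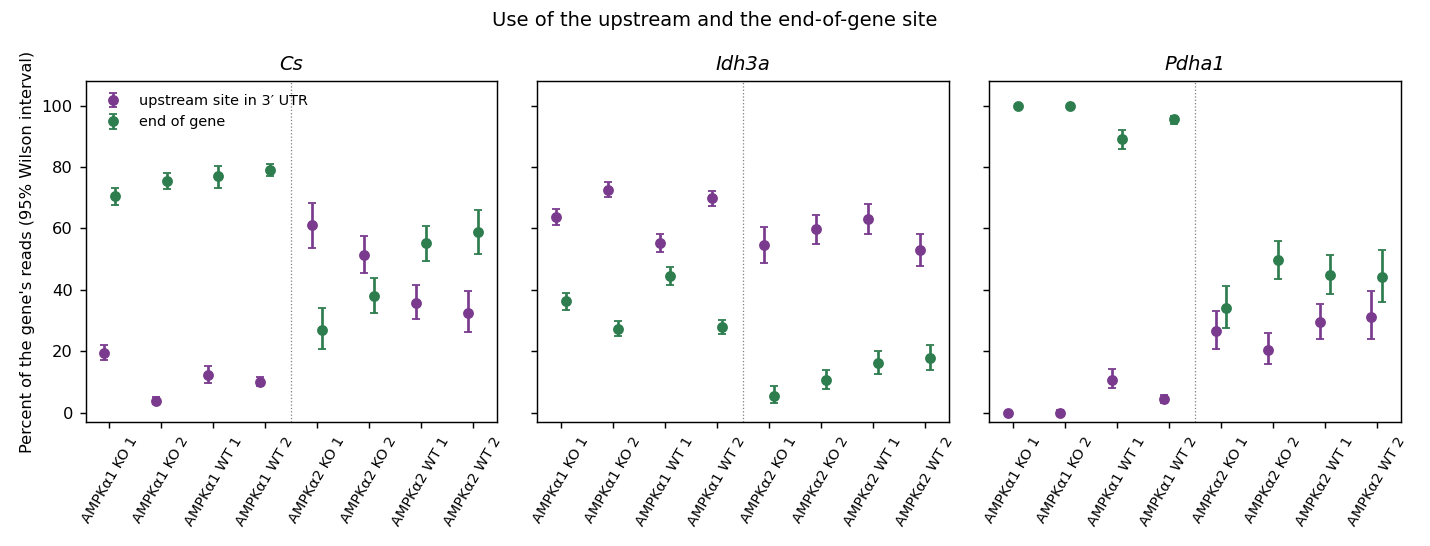
Percent of a gene's reads (y axis, with 95% Wilson intervals) at the upstream 3′ UTR site (purple) and at the end-of-gene site (green) of *Cs*, *Idh3a* and *Pdha1* in the 8 libraries (x axis; the dotted line divides the models). In AMPKα2 the purple *Cs* points are above the green in both KO libraries and below in both WT libraries, and the purple *Pdha1* points are at 0 in both AMPKα1 KO libraries.

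Over all sites, usage was tested for 7 of the 9 genes in AMPKα1 and 8 in AMPKα2, which had more than 1 APS past the read minimum. By edgeR's usage test at an adjusted p under 0.1, 0 were called, against 0.0262% and 0.104% of all genes. At an unadjusted p under 0.05 edgeR's test gave *Pdha1* in AMPKα1 (unadjusted p = 0.0116, adjusted p = 0.408), against 10.8% of all genes, and none in AMPKα2, against 7.5%. Without AMPKα2 KO 2, *Ogdh* was called, in a fit that called 84 genes in all.

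The other enzymes of the route were read from 3 lists. The rest of the cycle holds 10 genes, among them *Dld* (the E3 subunit shared by the pyruvate and 2-oxoglutarate complexes), *Dlst* and the 4 subunits of succinate dehydrogenase. In AMPKα1, 0 of 10 were called by edgeR's quasi-likelihood test at an adjusted p under 0.1, and 5 of 10 were lower at an unadjusted p under 0.05, against 2.84% of all genes, with a median log2 fold change of -1.02 against -0.03 for all genes. DESeq2 called 0 of the 10. *Dld* had 48.1 and 43.4 CPM in KO and 134 and 142 in WT, a log2 fold change of -1.59 (95% interval -2.69 to -0.50, unadjusted p = 0.0113, adjusted p = 0.763). The other 4 were *Sdha*, *Sdhb*, *Sdhc* and *Sdhd*, named after their values were seen, with log2 fold changes of -1.13, -1.36, -1.41 and -0.90. Each had both KO libraries below both WT libraries, as did 18.9% of all genes. *Suclg2*, the partner of *Suclg1* in the GTP-forming enzyme, lay the other way, with 123 and 81.2 CPM in KO against 44.2 and 71.0 and a log2 fold change of 0.83 (95% interval -0.44 to 2.09).

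In AMPKα2 the rest of the cycle had a median log2 fold change of 0.18, and 0 of 10 were called. *Dld* was the only one of them at an unadjusted p under 0.05, against 4.83% of all genes higher and 3.68% lower. It had 105 and 107 CPM in KO and 53.8 and 73.2 in WT, a log2 fold change of 0.74 (95% interval 0.18 to 1.30, unadjusted p = 0.0139, adjusted p = 0.398 by edgeR's quasi-likelihood test). *Dld* thus lay lower in AMPKα1 KO and higher in AMPKα2 KO with no overlap in either. Of all genes, 18.9% were lower without overlap in AMPKα1 and 18.6% higher without overlap in AMPKα2. The *Dld* difference of 2.31 between the models had an unadjusted p of 0.000647 and an adjusted p of 0.229 by edgeR's quasi-likelihood test.

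For pyruvate entry and its control, 11 of 12 listed genes were in the table, and 0 were called in either model. *Pdhb*, the β partner of *Pdha1*, had 17.3 and 51.6 CPM in AMPKα1 KO and 400.2 and 143 in WT, a log2 fold change of -2.97 (95% interval -4.84 to -1.11, unadjusted p = 0.0077, adjusted p = 0.763 by edgeR's quasi-likelihood test and 0.0173 by DESeq2). The list as a whole had a median of -0.63 in AMPKα1 and -0.03 in AMPKα2. Pyruvate dehydrogenase kinases switch the complex off and phosphatases switch it on. The kinase gene *Pdk4* had 140 and 104 CPM in AMPKα2 KO and 164 and 319.6 in WT, a log2 fold change of -0.98 (95% interval -1.73 to -0.24, unadjusted p = 0.0148, adjusted p = 0.406). The phosphatase gene *Pdp1* had 47.2 and 31.9 against 17.5 and 23.6, a log2 fold change of 0.94 (95% interval 0.24 to 1.64, unadjusted p = 0.0131, adjusted p = 0.392). *Pdk4* was called in the edgeR fit without a filter on low counts, with an adjusted p of 0.0173 among 397 genes called. In AMPKα1 *Pdk4* was also lower in both KO libraries, with 194 and 58.0 CPM against 283 and 355. Its log2 fold change there was -1.34 (95% interval -2.85 to 0.17). *Pdp1* overlapped in AMPKα1, with a log2 fold change of 0.23 (95% interval -1.02 to 1.48).

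Of the 19 genes of neighbouring reactions and carriers, 17 were in the table, and 0 were called by edgeR's quasi-likelihood test in either model. At an unadjusted p under 0.05, 2 were lower in AMPKα1 KO, against 2.84% of all genes, and 3 in AMPKα2 KO, against 3.68%, and the medians were 0.08 and -0.06. *Me1*, the cytosolic malic enzyme, had 10.8 and 15.7 CPM in AMPKα2 KO and 26.0 and 25.0 in WT, a log2 fold change of -0.92 (95% interval -1.63 to -0.20, unadjusted p = 0.0167, adjusted p = 0.417). It was also lower in both AMPKα1 KO libraries, with 30.1 and 73.7 CPM against 104 and 96.8. The log2 fold change there was -0.95 (95% interval -2.37 to 0.47). *Slc25a13*, an aspartate-glutamate carrier, had 74 and 47 reads in AMPKα1 KO and 0 and 6 in WT, a log2 fold change of 4.14 whose 95% interval ran from -0.97 to 9.26.

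**Figure D5:**
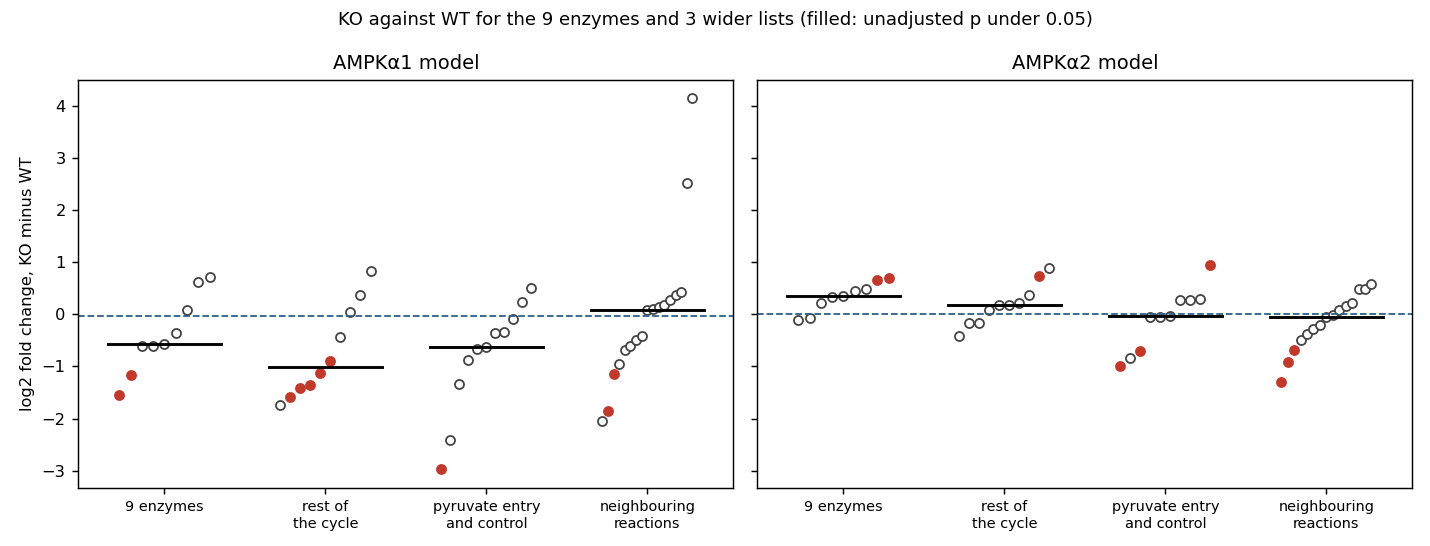
Log2 fold change of KO over WT (y axis) for the 9 genes and 3 wider lists (x axis) in AMPKα1 (left) and AMPKα2 (right); each point is a gene, filled at an unadjusted p under 0.05, bars are list medians and the dashed line is the median of all genes tested. In AMPKα1 the medians of the 9 genes (-0.57) and of the rest of the cycle (-1.02) lie below the dashed line, and in AMPKα2 those of both lie above it (0.35 and 0.18); no point passed after adjustment by edgeR's test, and DESeq2 called *Pdhb* in AMPKα1.

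The 9 genes summed to 3905 and 2928 CPM in AMPKα1 KO and 4089 and 4019 in WT, and to 1266 and 1109 in AMPKα2 KO and 856 and 1001 in WT. The KO and WT sums did not overlap in either model: KO was lower in AMPKα1 and higher in AMPKα2. This holds on the TMM scale: as a share of gene reads the 9 genes took 0.412% and 0.333% in AMPKα1 KO against 0.330% and 0.415% in WT, and 0.0941% and 0.129% in AMPKα2 KO against 0.0988% and 0.101% in WT, which overlap in both models. Among 1036 other genes with a mean of at least 100 CPM, those closest to this sum in log2 CPM, centred within each model, were *Dcn* (a matrix proteoglycan), *Hipk3* (a kinase), *Xirp2* (an actin-binding protein of striated muscle), *Uqcrq* (a subunit of respiratory complex III) and *Amotl1*. Their root mean square difference from the sum over the 8 libraries was 0.0835, 0.0885, 0.104, 0.118 and 0.135, against a median of 0.383 over the 1036 genes. The 9 genes themselves lay at 0.220 (*Cs*) to 0.520 (*Idh3g*) from their own sum.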

How the data were processed

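WTTS-seq reads come from the gastrocnemius of 8 mice. According to the methods, the authors filtered reads with the FASTX Toolkit, trimmed leading Ts, kept reads of at least 16 bases, mapped them with TMAP and clustered read ends within 24 nucleotides; the submitters' processing notes name GRCm38.p5. The deposited values are raw read counts per APS, without normalization, and the authors assigned APSs to genes. APS counts were summed per gene here and located with GENCODE M21 (GRCm38). The 9 genes and all lists were chosen with earlier results of these data known.

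Within each model, KO was set against WT with edgeR 4.0.16 (R 4.3.3, limma 3.58.1): TMM, robust quasi-likelihood fits, features with at least 16 reads over the 4 libraries, Benjamini-Hochberg adjusted p under 0.1; usage with diffSpliceDGE; DESeq2 1.42.0, which the authors used, as an alternative. Exact permutation of 2 against 2 mice cannot go below p = 0.333. Intervals are from the fit's SE, derived from its F statistic, and are approximate. The code was tested on simulated data. Named were all 9 genes, APSs with at least 5% of a gene's reads or called, and, as no listed gene was called, the 2 with the lowest p per model and direction. *Pdk3*, *Slc25a1* and *Slc25a11* were not analysed here. A listed gene is not reported by name here. Tables and figures were made in Python 3.11.15 (matplotlib 3.10.9, pandas 2.3.3, scipy 1.17.1, numpy 2.4.6). Depth was 2311242 to 3549156 reads per library, so 3 reads correspond to 0.845 to 1.30 CPM by library totals.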

Additional observations from a re-analysis of the deposited data

Results flagged for a closer look

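*Idh3g* moved in opposite directions in the models with no overlap between KO and WT libraries: lower in both AMPKα1 KO libraries and higher in both AMPKα2 KO libraries. Of all genes tested, 18.9% had both KO libraries below both WT libraries in AMPKα1, and 18.6% had both above in AMPKα2. The difference of the effects was 1.87 on the log2 scale and did not pass the interaction test after adjustment (unadjusted p = 0.0117, adjusted p = 0.524 by edgeR's quasi-likelihood test). Its main APS holds 98.3% of the *Idh3g* reads over the 8 libraries, so the values of this site are not a second observation. They were log2 fold changes of -1.70 in AMPKα1 and 0.21 in AMPKα2, and the difference was not tested for the site.

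The end site of *Pdha1* was lower in both AMPKα1 KO libraries and higher in both AMPKα2 KO libraries, with log2 fold changes of -0.63 and 0.44. The difference was not tested for the site, and at gene level, where the AMPKα1 groups overlapped, it was 1.28 (unadjusted p = 0.0468, adjusted p = 0.706).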

How the results depend on the processing

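Of 781 refitted log2 values of named genes and APSs, 749 kept their sign and their side of the threshold. With 2 mice per group and a coefficient of variation of 104% per gene in AMPKα1, depth is not the only limit there, whereas in AMPKα2 the 1985 to 2929 reads of the 9 genes per library limit single APSs. At gene level 0 of the 9 genes were called in either model under any setting. At site level in AMPKα1 the count was 1 with DESeq2 and 1 with all 8 libraries fitted together, both times the upstream *Pdha1* site, and leave-one-out fits gave 0. Usage in AMPKα2 ranged from 0 to 1 genes, and the model difference from 0 to 1, when single libraries were left out.

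Signs turned in these cases, where the cause was not tested; ranges are over leave-one-out fits. In AMPKα1 at gene level, *Fh1* (-0.26 to 0.42) was -0.26 without KO 1 and -0.15 without WT 2, and without WT 2 *Cs* (-0.65 to 0.070) was 0.070 and *Ogdh* (-1.15 to 0.30) was 0.30. For AMPKα1 sites, the *Fh1* site (-0.37 to 0.34) was 0.091 with DESeq2, 0.35 with library totals, 0.076 with RLE, 0.0079 with filterByExpr, 0.0041 with all 8 libraries, 0.15 without KO 2 and 0.34 without WT 1, the upstream *Cs* site (-1.92 to 0.33) was 0.33 without KO 2 and the *Ogdh* site (-1.14 to 0.12) 0.12 without WT 2. In AMPKα2, *Suclg1* (-0.27 to 0.047) was 0.047 without KO 2, *Idh3a* (-0.054 to 0.51) was -0.054 and its upstream site (-0.077 to 0.22) -0.077 without WT 1, *Fh1* (-0.20 to 0.046) was 0.046 without WT 2, *Cs* was -0.43 when only its strongest site, the end site, was counted, and without KO 1 an intronic *Cs* site (-0.76 to 0.093) was 0.093 and the upstream *Pdha1* site (-0.13 to 0.47) -0.13. Differences between models were, without AMPKα1 KO 1, 0.44 for *Idh2* (-0.60 to 0.44), 0.19 for *Fh1* (-0.61 to 0.19) and 0.12 for *Mdh2* (-0.49 to 0.14); without AMPKα1 WT 2, 0.095 for *Fh1*; without AMPKα2 KO 2, 0.013 for *Idh2*; and without AMPKα2 WT 2, 0.19 for *Idh2* and 0.14 for *Mdh2*.

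Counts over all genes moved more. In AMPKα1 the 0 genes became 124 with DESeq2 and 83 with all 8 libraries together, and the 2 APSs 218, 432, 48 with library totals, 4 without a filter, 0 with filterByExpr and up to 170 in leave-one-out fits. In AMPKα2 the 71 genes became 185 with library totals, 397 without a filter, 44 at an adjusted p under 0.05, 6 with all 8 libraries and 38 to 99 in leave-one-out fits, and the 13 APSs 96 with DESeq2, 42, 557, 8, 7 and 0 to 76 in the same order. The 10 genes with a model difference became 180 with DESeq2, 2 with library totals and 0 to 550 in leave-one-out fits.

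KO and WT carry the same replicate numbers but different mice, and the differences between replicates correlated at 0.03 in AMPKα1 and -0.0043 in AMPKα2 over genes, so the numbers were not taken as pairs. With the replicate block, 0 of the 9 genes were called at gene, site or usage level or for the model difference, while over all features the AMPKα2 counts became 99 genes and 519 APSs, and the model difference 0 genes.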
